A study of Homo sapiens with 6 samples.

Results

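DNA topoisomerases are the enzymes that cut, pass and reseal DNA strands. The human genes taken here were TOP1, TOP1MT, TOP2A, TOP2B, TOP3A and TOP3B, the type I and type II enzymes found by symbol in the deposited gene table. They are 6 of 38637 genes, and all 6 were among the 13980 genes tested, which had a mean of at least 1 TPM. TPM, the unit of the table, divides the reads of a gene by its length and scales each library to 1000000.

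The study asked whether cDCBLD2, a circular RNA spliced from the gene DCBLD2, acts on TOP2A through the microRNA miR-345-5p in sorafenib-resistant liver cancer cells. Poly(A) RNA was sequenced from HCCLM3-SR, a line made resistant to the multikinase inhibitor sorafenib by long exposure to rising doses and derived from the hepatocellular carcinoma line HCCLM3. All 6 libraries came from cells under 5 µM sorafenib. The knockdown group (3 libraries) received siRNA against cDCBLD2 for 3 days and the control group (3 libraries) received control siRNA for 3 days. There was no library without sorafenib and none from the parental line, and both groups come from 1 resistant line. The paper picked TOP2A, with qPCR, from among the mRNAs that this sequencing showed as most lowered by the knockdown. The rank and p-values of TOP2A below therefore come from the data that selected it.

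Type I enzymes cut 1 strand of DNA, while type II enzymes cut both strands and pass another duplex through the gap with the use of ATP. TOP2A is made mainly from S phase to mitosis, where it separates the linked sister chromatids, and its paralog TOP2B is present throughout the cell cycle and acts at transcribed genes. TOP1 relaxes supercoils around moving polymerases, TOP1MT does so in mitochondria, and TOP3A and TOP3B resolve single-stranded crossings, TOP3B also acting on RNA. Etoposide and doxorubicin trap the type II enzymes on DNA, and camptothecins trap TOP1.

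The sequences that bear on the study's question are the microRNA and its matches in the type II genes. The mature miR-345-5p (RefSeq, GRCh38.p14, chr14:100307876-100307897, plus strand) is shown first with its seed, bases 2 to 8, in capitals. The matches in the coding sequences of TOP2A and TOP2B (GENCODE release 29, GRCh38) follow with the bases complementary to the seed in capitals.
miR-345-5p: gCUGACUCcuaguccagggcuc
TOP2A, exon 35 of 35: taaagtacctggaaGAGTCAGa
TOP2A, across exons 33 and 34: aagacagcagcaaaaAGTCAGt
TOP2B, exon 2 of 36: ctgcaaaaaaagaaGAGTCAGa

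The full 7-base match GAGTCAG occurred once in the coding sequence of TOP2A, from base 4570 of 4596 (chr17:40389539-40389545, minus strand), close to the stop codon. TOP2B also held it once, from base 106 of 4881 (chr3:25645428-25645434, minus strand), close to the start codon. In both genes the base after the match was an A. The second TOP2A site shown has the 6-base match AGTCAG, from base 4267, and counting both kinds together TOP2A held 2 and TOP2B held 5 coding 6-base matches. TOP1, TOP1MT, TOP3A and TOP3B held neither match in the coding sequence, no member held the 7-base match in the 3′ UTR, and TOP3B held it in the 5′ UTR (chr22:21975801-21975807, minus strand). Long coding sequences often hold such a match. It was present in 11.8% of 20389 coding genes, in 36.1% of the 421 coding sequences within 10% of the length of TOP2A and in 38.2% of the 374 within 10% of the length of TOP2B. A match of letters does not show that the microRNA binds there. The paper tested binding to TOP2A by experiment. It reports that labelled miR-345-5p pulled down TOP2A mRNA, and that mutation of either of 2 predicted coding sites removed the effect on a reporter. Its text does not say whether those are the 2 sites shown here.

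The libraries were first checked against their labels. DCBLD2 was at 38.5 ± 17.2 TPM in knockdown and 56.9 ± 12.7 TPM in control libraries (mean ± SD, n = 3 each), and the groups overlapped. Its log2 fold change was -0.61, with adjusted p = 0.253 in limma across all genes and 0.0139 with the replicate number as a block. After a correction for GC content the log2 fold change of DCBLD2 was -0.30 (adjusted p = 0.0492 with the block in limma). A gene-level value in poly(A) libraries is not a measure of the circular RNA, so it does not measure the knockdown itself. In its own tests after the knockdown, the paper saw no clear and consistent change of the host mRNA or protein across its resistant lines. The epithelial keratins KRT8 and KRT18 averaged 3927 and 2322 TPM in knockdown and 3140 and 1941 TPM in control libraries, and the epithelial marker EPCAM was below 1 TPM. HNF4A, a hepatocyte transcription factor, averaged 29.1 TPM in knockdown and 23.4 TPM in control libraries. KRT8 and HNF4A did not overlap between the groups, and with the block KRT8 (adjusted p = 0.00669), KRT18 (0.00954) and HNF4A (0.0196) rose in limma. The other 7 liver markers were low, at knockdown and control means of 0.607 and 1.11 TPM for ALB, 1.47 and 1.04 TPM for AFP, 0.565 and 0.439 TPM for APOA1, and 0.0449 and 0.0389 TPM for GPC3. APOB averaged 1.64 and 3.44 TPM with all knockdown libraries lower (adjusted p = 0.0126 with the block in limma), TTR 1.496 and 0.215 TPM with all knockdown libraries higher, and SERPINA1 2.43 and 1.77 TPM with overlap. The part of these markers in the results was not tested. Of 3 leukocyte markers CD3E was at 0 in all 6 libraries, PTPRC averaged 0.338 TPM in knockdown and 0.371 TPM in control libraries, and CD68, a lysosomal protein, averaged 111 and 103 TPM. Summed over the 4 fibroblast markers, levels ran from 32.2 to 73.9 TPM in knockdown and from 30.0 to 43.8 TPM in control libraries, most of it LUM. COL1A1 and COL3A1 among them had all knockdown libraries above all control libraries. Their means were 6.16 and 2.36 TPM in knockdown and 2.21 and 0.602 TPM in control libraries, and DCN was near 0. All libraries came from 1 cultured line, and the part of these genes in the results was not tested. The reads recovered from the TPM values ran from 17489570 to 23059351 per library, and the members had between 464 reads (TOP3B) and 4574 reads (TOP2A) in any library.

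In the control libraries TOP1 had the highest mean of the family and TOP3B the lowest. The control means were 99.9 ± 16.9 TPM for TOP1, 87.3 ± 25.5 TPM for TOP2A, 79.2 ± 1.07 TPM for TOP1MT, 51.4 ± 10.7 TPM for TOP2B, 25.4 ± 0.965 TPM for TOP3A and 16.5 ± 0.635 TPM for TOP3B (SD, n = 3). The range of TOP2A overlapped those of TOP1 and TOP1MT, its neighbours in this order, although TOP1 exceeded TOP2A in 3 of 3 libraries. TOP1 (89.1 to 119 TPM) lay above TOP1MT (78.4 to 80.4 TPM) without overlap. The ranges of TOP1MT, TOP2B, TOP3A and TOP3B were apart from each other.

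TOP2A, the replicative type II enzyme, had the largest difference of the family. Knockdown replicates 1, 2 and 3 had 54.6, 21.1 and 24.4 TPM, where the control replicates of the same numbers had 116, 69.5 and 75.9 TPM. Every knockdown library was below every control library, and replicate 1 was the highest of both groups. The knockdown mean, 33.4 ± 18.4 TPM, was 38.2% of the control mean. The two-sided exact permutation test gave p = 0.1, the smallest that 3 against 3 libraries allow. On the log2(TPM + 1) scale, which understates the change of low genes, the log2 fold change was -1.45 ± 0.37 (SE), rank 23 from the lowest of the 13980 genes tested. It missed the threshold in limma without a block (adjusted p = 0.0892) and passed with the replicate block (SE 0.12, adjusted p = 0.00436). Without knockdown replicate 1 the change was -1.86 and passed without a block (adjusted p = 0.0129). Leaving out any other single library gave -1.59 to -1.20, and none of these passed (adjusted p from 0.1995 to 0.283). In bulk RNA, fewer cells that express TOP2A and less TOP2A RNA per cell cannot be told apart.

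TOP2B, the other type II enzyme, was lower in the same direction by a smaller amount. Its level was 43.2, 21.8 and 25.03 TPM in knockdown and 63.4, 42.6 and 48.3 TPM in control replicates 1, 2 and 3. The groups overlapped at a single pair, since knockdown replicate 1 was just above control replicate 2, and within each replicate number the knockdown library was the lower one. The knockdown mean was 58.4% of the control mean (exact permutation p = 0.2). The log2 fold change was -0.80 ± 0.27 (SE), with adjusted p = 0.134 without and 0.00586 with the block in limma.

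TOP1, the nuclear type IB enzyme, was at 101, 61.3 and 62.5 TPM in knockdown and at 119, 89.1 and 91.1 TPM in control replicates 1, 2 and 3. Knockdown replicate 1 was above 2 of the 3 control libraries, so the groups overlapped. The knockdown mean was 75.1% of the control mean (exact permutation p = 0.3), and the log2 fold change was -0.44 ± 0.22 (SE), with adjusted p = 0.253 without and 0.0108 with the block in limma. The block call was lost without replicate 2 (adjusted p = 0.0584) or replicate 3 (0.0704), and after GC correction, where the change was -0.10 (0.131).

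TOP1MT, the mitochondrial type IB enzyme, showed another order of libraries. It was at 58.0, 73.6 and 69.5 TPM in knockdown and at 80.4, 78.4 and 78.8 TPM in control replicates 1, 2 and 3. The groups did not overlap (exact permutation p = 0.1), and knockdown replicate 1, the highest of its group for TOP2A, TOP2B and TOP1, was here the lowest. The knockdown mean was 84.6% of the control mean. The log2 fold change was -0.25 ± 0.10 (SE), and limma on the uncorrected values did not call it (adjusted p = 0.178 without and 0.0650 with the block). After GC correction it was -0.33 and passed with the block (adjusted p = 0.0330).

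The type IA enzymes were close to level across the libraries. TOP3A, which works with the helicase BLM, was at 26.7, 25.8 and 25.4 TPM in knockdown and at 26.4, 24.6 and 25.01 TPM in control replicates 1, 2 and 3. TOP3B, whose partner is TDRD3, was at 17.1, 16.6 and 16.4 TPM in knockdown and at 15.9, 16.6 and 17.1 TPM in control replicates 1, 2 and 3. Both sets of groups overlapped, with exact permutation p = 0.4 for TOP3A and 0.7 for TOP3B. The log2 fold changes were 0.03 with a 95% interval of -0.14 to 0.21 for TOP3A and 0.02 with an interval of -0.17 to 0.21 for TOP3B in limma (adjusted p = 0.804 and 0.907). The direction of both turned with a correction for GC content, to -0.01 for TOP3A and -0.09 for TOP3B.

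**Figure D1:**
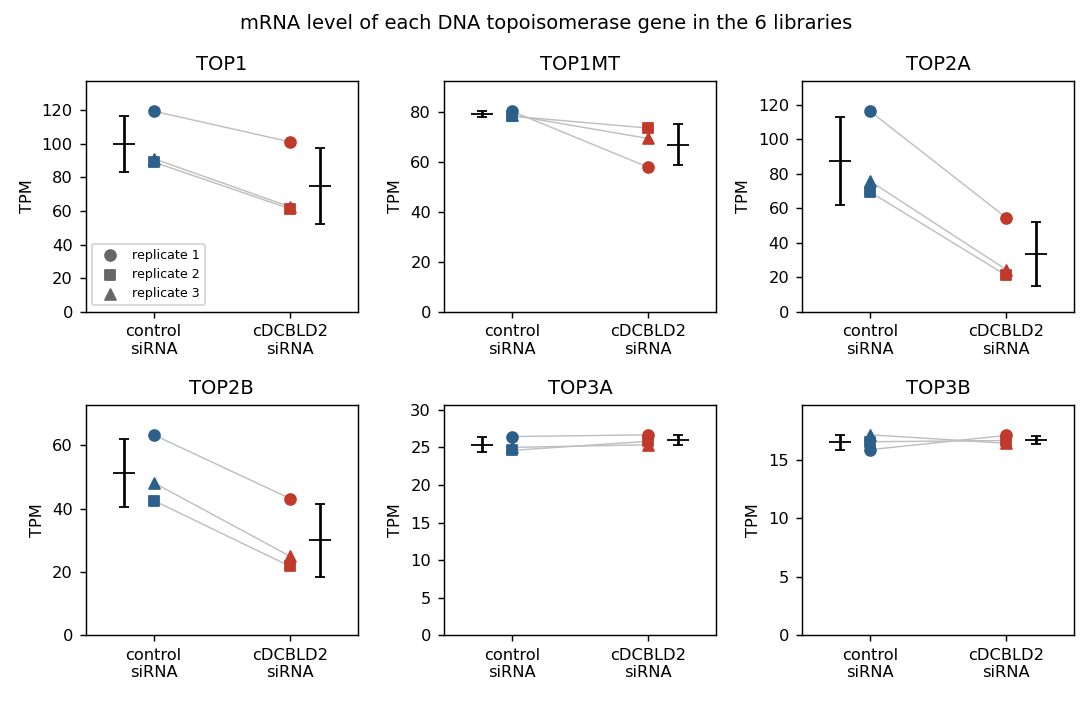
TPM of each topoisomerase gene (vertical axes, from 0) in the control and knockdown libraries. Symbols mark the replicate number, grey lines join libraries of the same number, and bars give the mean and SD of 3 libraries. The knockdown libraries of TOP2A (21.1 to 54.6 TPM) and TOP1MT (58.0 to 73.6 TPM) lie below all control libraries, while TOP3A and TOP3B overlap.

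Counted together, 2 of the 6 members (TOP2A and TOP1MT) had all knockdown libraries below all control libraries, as had 22.3% of all genes tested, and none had them all above (9.58% of all genes). At an adjusted p under 0.05 in limma without a block, 0 of 6 members were lower and 0 higher, against 0.629% and 0.25% of all genes. At an unadjusted p under 0.05, 3 members (TOP1MT, TOP2A and TOP2B) were lower in that fit, as were 19.4% of all genes. Limma-voom on the recovered reads without a block also called 0 members lower and 0 higher, against 1.72% and 1.29% of all genes. With the replicate block 3 members fell (TOP1, TOP2A and TOP2B) and 0 rose, while 25% of all genes fell and 9.94% rose. Among genes of like GC content the share that fell was between 52.6% and 60.7% for these 3 members. TOP2A alone also passed the |log2 fold change| threshold of 1, which 0.751% of all genes did in the lower direction.

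**Figure D2:**
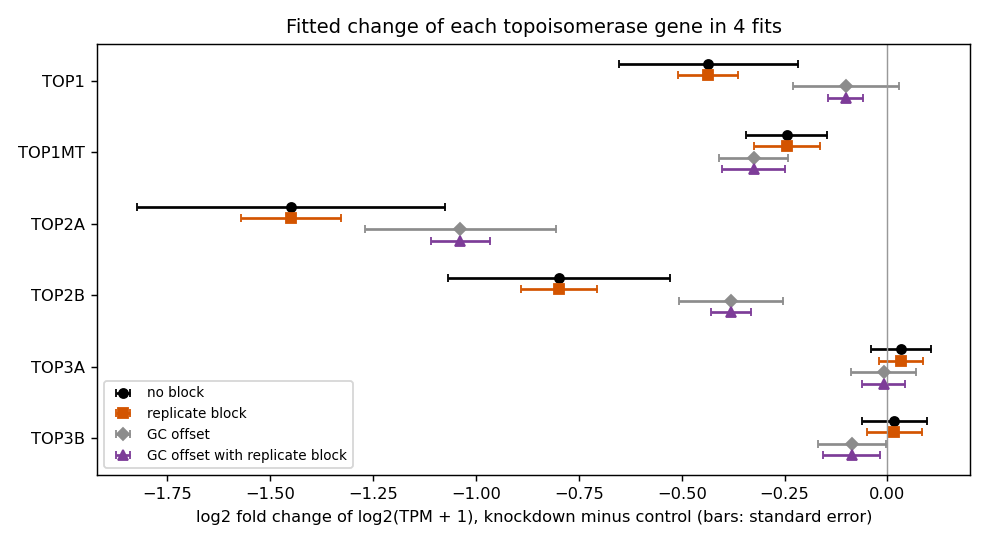
Log2 fold change of log2(TPM + 1), knockdown minus control, for each member in 4 fits (horizontal axis; bars are standard errors; GC offset means that each library's trend with transcript GC content was removed). TOP2A lies at -1.45 without and -1.04 with the GC offset and is the lowest member in all 4 fits, and the replicate block narrows its bars from 0.37 to 0.12 without the offset.

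Replicate numbers mattered for the 3 members that fell with the block, because their replicate 1 libraries were high in both groups. In the knockdown group replicate 1 exceeded the mean of replicates 2 and 3 by factors of 2.40 for TOP2A, 1.85 for TOP2B and 1.63 for TOP1. In the control group the factors were 1.60, 1.39 and 1.32 in the same order. For TOP1MT, TOP3A and TOP3B they lay between 0.810 and 1.04 in knockdown and between 0.942 and 1.07 in control libraries. Taken within replicate numbers 1, 2 and 3, the log2 changes of TOP2A were -1.08, -1.67 and -1.60, those of TOP2B were -0.54, -0.93 and -0.92, and those of TOP1 were -0.24, -0.53 and -0.54. Replicate 1 thus had the smallest of the 3 differences in each of these genes, and for TOP1MT it had the largest (-0.47, against -0.09 and -0.18).

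The comparison of TOP2A with its paralogs was made within libraries, where a factor common to all genes of the library cancels. A trend with GC content does not cancel between genes of unlike GC content, and ratios after GC correction are given further below. The ratio of TOP2A to TOP2B was 1.26, 0.967 and 0.975 in knockdown replicates 1, 2 and 3 and 1.84, 1.63 and 1.57 in control replicates 1, 2 and 3. The groups did not overlap, so that TOP2A was the more abundant type II mRNA in 3 of 3 control libraries but in only 1 of 3 knockdown libraries. The mean ratio was 1.07 ± 0.168 in knockdown and 1.68 ± 0.140 in control libraries (SD, n = 3, exact permutation p = 0.1). The ratio differed by -0.65 on the log2 scale, with -0.54, -0.74 and -0.68 within replicates 1, 2 and 3. Limma gave adjusted p = 0.168 without and 0.00413 with the block. The block call was lost without replicate 2 (adjusted p = 0.133) or replicate 3 (0.194).

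The ratio of TOP2A to TOP1 was 0.540, 0.345 and 0.391 in knockdown and 0.975, 0.780 and 0.833 in control replicates 1, 2 and 3, again with no overlap (exact permutation p = 0.1). It differed by -1.01 on the log2 scale (limma adjusted p = 0.0498). The ratio to TOP1MT overlapped between the groups, at 0.942, 0.287 and 0.351 in knockdown and 1.45, 0.887 and 0.962 in control libraries (exact permutation p = 0.2, log2 difference -1.20, limma adjusted p = 0.0304). Relative to TOP3A and TOP3B, which were near level, TOP2A differed by -1.48 and -1.47 on the log2 scale (limma adjusted p = 0.0125 and 0.0123, exact permutation p = 0.1 for both). In this family of 13979 ratios, 1 for each other gene, TOP2A fell relative to 85.5% of genes without and 99.2% with the block, and the groups were apart in 82% of them. Since every ratio carries the same spread of TOP2A, these adjusted p-values treat that spread as better known than 6 libraries allow. Without any 1 of the libraries other than knockdown replicate 1, the TOP1 and TOP1MT ratios did not pass. The TOP3A and TOP3B ratios did not pass without knockdown replicate 2 (limma adjusted p = 0.0834), knockdown replicate 3 (0.103) or control replicate 1 (0.0962).

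**Figure D3:**
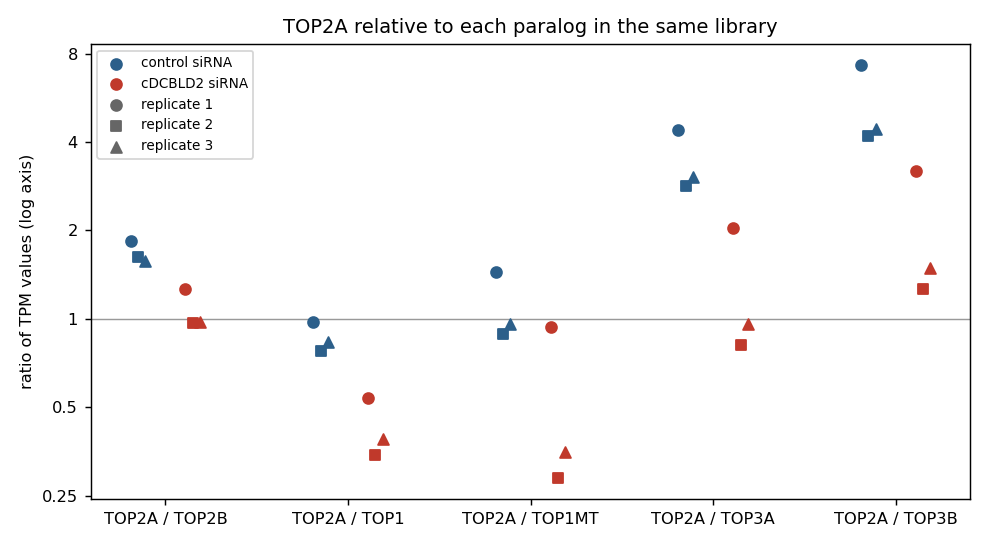
Ratio of the TPM of TOP2A to that of each paralog (log axis) in the 3 control and 3 knockdown libraries, with symbols for the replicate number. TOP2A over TOP2B lies between 1.57 and 1.84 in control and between 0.967 and 1.26 in knockdown libraries, and the TOP1MT ratio is the only one in which the groups overlap.

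The make-up of the family differed with these levels. The summed TPM of the 6 genes was 301, 220.3 and 223 in knockdown replicates 1, 2 and 3 and 422, 321 and 336 in control replicates 1, 2 and 3, with no overlap. TOP2A made up 12.9% ± 4.6 of the sum in knockdown and 23.9% ± 3.20 in control libraries. Both type II enzymes together made up 24.7% ± 6.89 and 38.2% ± 3.98, and TOP2A made up 51.4% ± 3.76 and 62.6% ± 1.90 of the type II sum (SD, n = 3). The share of TOP3A was 10.7% ± 1.55 in knockdown and 7.13% ± 0.752 in control libraries at nearly the same TPM. In the knockdown order TOP1 and TOP1MT came first and did not differ beyond their spread, TOP2A, TOP2B and TOP3A overlapped, and TOP3B remained the lowest.

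**Figure D4:**
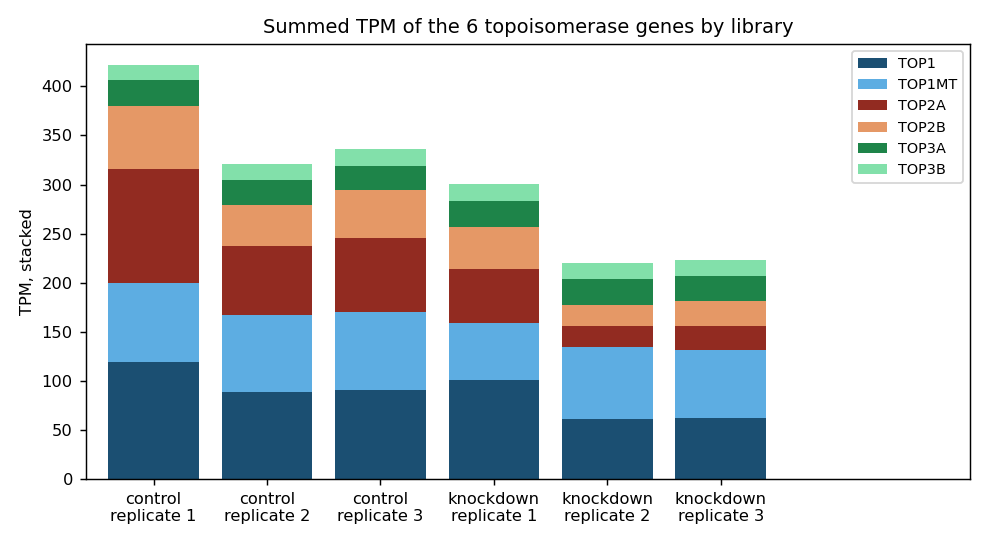
TPM of the 6 topoisomerase genes stacked for each library, from 0. The sum runs from 321 to 422 TPM in control and from 220.3 to 301 TPM in knockdown libraries, and the TOP2A segment narrows from 69.5 to 116 TPM to 21.1 to 54.6 TPM.

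The 3 members that fell with the block on uncorrected values are also those with a low GC content. The transcript of TOP2A (chromosome 17, 40388516 to 40417950, minus strand, 35 exons) has 39.1% GC, that of TOP2B (chromosome 3, 25597905 to 25664907, minus strand, 36 exons) 38.7% and that of TOP1 (chromosome 20, 41028818 to 41124487, plus strand, 21 exons) 42.2%. TOP1MT on chromosome 8 has 57.5%, TOP3A (chromosome 17, 18271428 to 18315007, minus strand) 55.2% and TOP3B (chromosome 22, 21957025 to 21982816, minus strand) 59.3%, with a median of 50.05% over the genes tested. Across 13160 genes, which are not independent replicates, the log2 fold change correlated with GC content at Spearman's rho = 0.638, and its median was -0.40 in the lowest and 0.11 in the highest of 5 equal groups by GC content. Against genes within 2 points of their own GC content, TOP2A was -1.45 where the median was -0.42 (1710 genes), TOP2B -0.80 where it was -0.42 (1640 genes), and TOP1 -0.44 where it was -0.32 (2080 genes). TOP1MT was -0.25 where the median of its neighbours was 0.06. With the block 60.7% of the genes near TOP2A in GC content were called lower, as were 60.7% of those near TOP2B and 52.6% of those near TOP1, against 25% of all genes. The part of GC content in these differences was not tested.

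With each library's GC trend removed, the log2 fold changes were -1.04 for TOP2A, -0.38 for TOP2B, -0.10 for TOP1 and -0.33 for TOP1MT. With the replicate block in the same limma fit, TOP2A (adjusted p = 0.00467), TOP2B (0.00844) and TOP1MT (0.0330) fell and TOP1 missed the threshold (0.131). The corrected fit with the block called 13.2% of all genes lower and 11.4% higher. The difference between TOP2A and TOP2B, which have nearly the same GC content, was -0.66 after the correction. The differences of TOP2A from TOP1 (-0.94), TOP1MT (-0.71), TOP3A (-1.03) and TOP3B (-0.95) were smaller in size than without the correction.

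**Figure D5:**
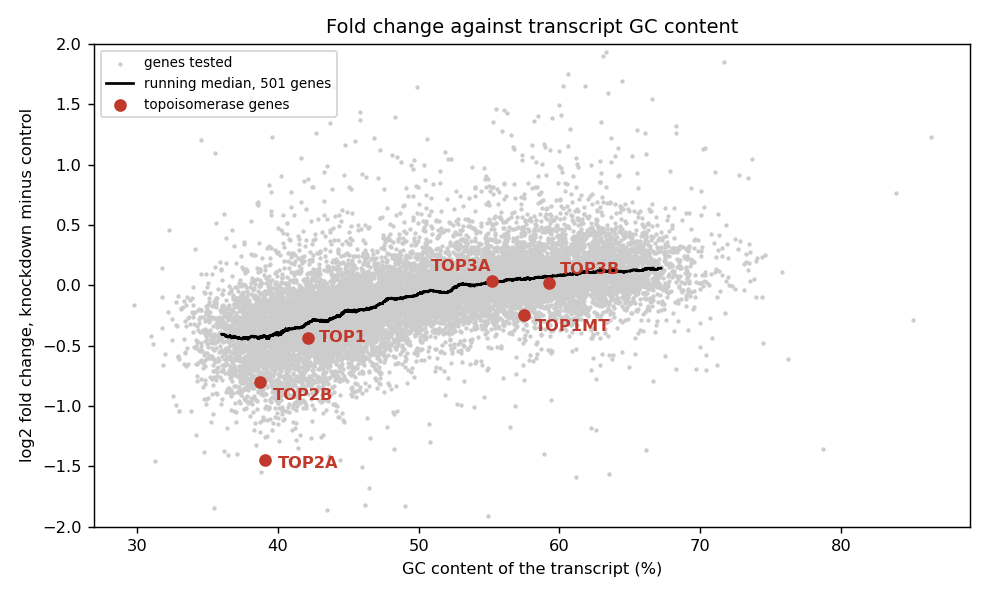
Log2 fold change (knockdown minus control, limma without a block) against the GC content of the transcript in percent, for 13160 genes (grey), with a running median (line) and the topoisomerase genes (red). The vertical axis is limited to values from -2 to 2, which leaves out 8 genes. TOP2A, at 39.1% GC and -1.45, lies furthest below the line of the 6 members, and TOP3A and TOP3B lie close to it.

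Cell-cycle genes moved in the same direction as TOP2A. Of 43 S-phase genes, 31 fell and 0 rose with the block, where 25% of all genes fell and 9.94% rose. Their median log2 fold change was -0.37, against -0.08 for all genes tested. MCM7, a subunit of the replicative helicase, was at 602 ± 94.7 TPM in knockdown and 687 ± 126 TPM in control libraries (adjusted p = 0.0203 with the block in limma). PCNA, the sliding clamp of DNA polymerases, was at 270.4 ± 68.9 TPM in knockdown and 344 ± 79.5 TPM in control libraries (adjusted p = 0.00936 with the block in limma, but 0.120 after GC correction, where its log2 fold change went from -0.35 to -0.13). Of 53 G2/M genes other than TOP2A, 49 fell and 1 (TUBB4B, a tubulin) rose with the block, with a median of -0.62. TUBB4B, the highest of this list, was at 1192 ± 296 TPM in knockdown and 1031 ± 259 TPM in control libraries, and JPT1 was at 419 ± 19.3 and 384 ± 38.9 TPM and did not pass. The rise of TUBB4B did not pass after GC correction (adjusted p = 0.0710 with the block in limma). CKS2, which binds cyclin-dependent kinases, was at 231.5 ± 34.6 TPM in knockdown and 314 ± 12.8 TPM in control libraries (adjusted p = 0.00809 with the block, but 0.106 after GC correction, where its log2 fold change went from -0.45 to -0.09). Without a block limma called 0 of the S-phase and 1 of the G2/M genes lower, against 0.629% of all genes. The groups were apart, with knockdown lower, for 13 of the 43 and 30 of the 53, and for 22.3% of all genes. After GC correction with the block, 15 S-phase and 41 G2/M genes fell, as did 13.2% of all genes. The corrected medians were -0.16 for the S-phase and -0.38 for the G2/M genes, against -0.0084 for all genes. The part of the cell cycle in the TOP2A difference was not tested.

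The genes that work with the topoisomerases were taken in 6 groups of 30 genes in all, of which 29 were tested. With the block 18 fell and 0 rose in limma, where 25% of all genes tested fell and 9.94% rose. The median log2 fold change was -0.38, against -0.08 for all genes tested. These genes had a median GC content of 41.97%. Of the 2080 genes within 2 points of the 42.2% of TOP1, 52.6% fell with the block, and their median was -0.32. The log2 fold change was negative for 27 of the 29, as it was for 62.4% of all genes. Without the block 0 were called. In 11 of the 29 the knockdown libraries were all below the control libraries, as in 22.3% of all genes. After GC correction with the block 8 fell and 2 rose, with a median of -0.17, where 13.2% and 11.4% of all genes did. The same shares of all genes and of genes with like GC content stand beside the counts of the single groups below.

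The partners of the TOP3 enzymes were lower although TOP3A and TOP3B were level. All 4 fell with the block, with a median of -0.54, and 0 of 4 did so after GC correction. RMI2, which joins TOP3A and BLM, was at 23.1 ± 2.99 TPM in knockdown and 28.2 ± 0.55 TPM in control libraries, with no overlap (adjusted p = 0.0450 with the block). RMI1, of the same complex, was at 6.62 ± 3.26 and 10.1 ± 2.98 TPM in the same order and overlapped (adjusted p = 0.0130 with the block).

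Among binding partners and modifiers, 4 of 5 fell with the block (median -0.56), and 2 of 5 after GC correction. TOPBP1, a checkpoint protein that binds topoisomerase IIβ, was at 13.8 ± 8.43 TPM in knockdown and 29.7 ± 10.9 TPM in control libraries. Its log2 fold change of -1.14 was the lowest of the 29 genes (adjusted p = 0.152 without and 0.00481 with the block in limma). PIAS4, a SUMO ligase, did not pass, at 24.02 ± 1.5 and 22.5 ± 2.16 TPM.

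Of the genes that free trapped topoisomerases from DNA, 5 of 7 fell with the block (median -0.70), and 3 fell and 1 rose after GC correction. TDP2, which cleaves the bond of type II enzymes to DNA, was at 59.7 ± 2.23 TPM in knockdown and 62.4 ± 3.72 TPM in control libraries (log2 fold change -0.06, adjusted p = 0.639 without the block), and it is the gene that rose after GC correction (0.28, adjusted p = 0.0103). RBBP8 (CtIP), a nuclease cofactor in end resection, was at 26.2 ± 15.2 and 44.6 ± 14.9 TPM (-0.83, adjusted p = 0.00844 with the block), and TDP1, which cleaves the bond of TOP1 to DNA, at 7.04 ± 0.723 and 10.3 ± 0.369 TPM with no overlap (-0.49, adjusted p = 0.0149 with the block). After GC correction RBBP8 was at -0.42 and still passed (adjusted p = 0.0167), and TDP1 was at -0.26 and did not (adjusted p = 0.0707).

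The last groups were single-strand break repair and mitochondrial genes. Of 4 repair genes (median -0.18, and -0.20 after GC correction), PARP1 alone fell with the block, from 159 ± 15.5 to 131 ± 7.19 TPM with no overlap (adjusted p = 0.0256), and it did not pass after GC correction (adjusted p = 0.0850). XRCC1, a scaffold protein of this repair, was at 53.3 ± 3.09 TPM in knockdown and 58.6 ± 5.77 TPM in control libraries and did not pass in that fit. Of 8 genes of mitochondrial DNA replication and transcription, 4 fell with the block (median -0.25), and after GC correction 2 fell and 1 rose. SSBP1, the mitochondrial single-strand DNA binding protein, was at 97.4 ± 17.3 and 105 ± 10.2 TPM, and POLRMT, the mitochondrial RNA polymerase, at 92.0 ± 15.9 and 103 ± 8.81 TPM in knockdown and control libraries. Neither passed in the block fit without GC correction. With it SSBP1 is the gene that rose (0.26, adjusted p = 0.0155), and POLRMT fell (-0.32, adjusted p = 0.0118). The meiotic relative SPO11 had 1 read in 1 control library and 0 in the other 5, and its partner TOP6BL (C11orf80) was at 11.1 ± 0.464 and 11.4 ± 0.345 TPM.

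The genes whose levels followed each member most closely were found by the Euclidean distance between centred log2(TPM + 1) profiles over the 6 libraries, as a description. U2SURP (distance 0.118), ECT2 (0.194), TPR (0.256), DNAJC13 (0.30) and PDS5A (0.307) were nearest to TOP2A. TOP2B was only the 187th nearest to TOP2A, at a distance of 0.869 and Pearson's r = 0.991 over 6 libraries. TOP1 was the 1294th, at 1.34 with r = 0.949. Nearest to TOP2B were CEP170 (0.020) and COBLL1 (0.0491), to TOP1 PPP4R2 (0.0774) and PAQR3 (0.0784), and to TOP1MT PFKM (0.0600) and COCH (0.0699). TOP3A was closest to POFUT1 (0.0267) and CTNNA1 (0.0295), and TOP3B to SLC39A14 (0.0463) and LOC107986838 (0.0486).

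The seed match was then read against the fold changes over all genes. Genes with GAGTCAG in the coding sequence had a median log2 fold change of -0.13 (1547 genes), and those without it -0.08 (10255 genes). Among coding sequences of at least 4000 bases, which include both type II genes, the medians were -0.33 (374 genes with a match) and -0.22 (455 genes without). After GC correction these were -0.20 and -0.14. For a match in the 3′ UTR, which no member holds, the medians were -0.11 with it (1080 genes) and -0.09 without (10722 genes), and the order turned after GC correction (0.00193 and -0.0131).

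Promoter windows of 250 bases before to 50 after the start were given for 5 of the 6 members by RefSeq (GRCh38.p14), with 2 windows for TOP2B. The CCAAT box, read on both strands, occurred 4 times at TOP2A and 2 times in 1 window of TOP2B, and not in the windows of TOP1, TOP3A and TOP3B. Over 35116 promoters of this length, 34.6% held at least 1 and 0.99% at least 4. TTTGAA, a cell-cycle promoter element, occurred 2 times at TOP2A and 1 time in the same TOP2B window, and 2.3% of promoters held at least 2. No measurement here bears on the use of these letters.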

How the data were processed

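Poly(A) RNA-seq of HCCLM3-SR cells gave 3 knockdown and 3 control libraries, grouped by their labels. The authors deposited TPM per gene. The submitters' processing notes name fastp 0.20.1, HISAT2 2.1.0, StringTie 2.0 and hg38, while counting and strand settings are not given in the sources used here, so overlapping genes are uncertain. The labels do not say that libraries came from separate cultures, so p-values measure only the spread between these libraries.

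The 13980 genes whose mean reached 1 TPM were fitted on the log2(TPM + 1) scale by limma 3.58.1 in R 4.3.3, using a trend of variance with mean and the Benjamini-Hochberg adjustment. Calls used an adjusted p under 0.05. Ratios to TOP2A were fitted likewise over all genes, and single values were compared by exact two-sided permutation. The replicate numbers in the labels were taken as pairs, since deviations from the group means correlated within each number (0.56, 0.343 and 0.362) and less across numbers (-0.45 to 0.247). Between replicates 2 and 3 the margin was small, with 0.247 and 0.215 across these numbers. What the numbers mark is not in the labels. Alternatives were a pseudocount of 0.1, no filter, upper-quartile scaling, the replicate block, a loess GC offset (span 0.5), limma-voom on recovered reads, leaving out each library and, chosen after seeing the data, leaving out each pair.

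Reads were recovered from ratios of TPM values between libraries. Of 17285 genes above 0 in all libraries, 69.87% gave whole numbers under 1000 reads within 0.02, against 0.02% with library factors moved at random. Totals are lower bounds. GC content and coding sequences came from GENCODE release 29, the longest coding transcript per gene, matched for 94.1% of genes tested. Cell-cycle lists came from Seurat 5.3.0. In simulated data over 13980 genes, 200 were changed by 1.5 on the log2 scale. With a replicate effect of SD 0.3, limma called 68% of them without and 94% with the block, and 2.86% and 13.8% of calls were unchanged genes. With no replicate effect it called 93% and 90.5%, and 5.1% and 8.59% of calls were unchanged genes. The simulation held no GC trend and fewer changed genes than the block called here, so it does not give the error of the block fit in these data.

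The genes named are the members, those among the highest in mean TPM of each list, the genes with profiles nearest to each member, and DCBLD2. TDP1 and the marker genes printed were picked after their values were seen. Results for 1 further listed gene are not reported here. The members and lists were chosen with earlier results of these data known. Python 3.11.15 was used with pandas 2.3.3, numpy 2.4.6, scipy 1.17.1 and matplotlib 3.10.9.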

Additional observations from a re-analysis of the deposited data

How the results depend on the processing

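With 3 libraries a group, the calls turned on the replicate block and on single libraries, and the cause was not tested. Without the block limma called 88 genes lower and 35 higher (3654 at an unadjusted p under 0.05). The counts lower and higher were 3501 and 1390 with the replicate block, 2 and 3 with the GC offset, 1731 and 1500 with the GC offset and block, 259 and 193 with limma-voom, 3081 and 2627 with limma-voom and block, and 1 and 3 with no filter. Upper-quartile scaling gave 62 and 59 and moved the median of all genes from -0.08 to -0.02. Leaving out each library gave 0 to 2771 lower and 0 to 649 higher, the highest without knockdown replicate 1 and 0 of either without any other library, where 2161 to 2803 genes had an unadjusted p under 0.05. With the block, leaving out replicate 1, 2 or 3 gave 3912, 1083 and 446 lower and 1583, 417 and 185 higher.

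Of the 6 members 3 fell with the replicate block, with the GC offset and block, and with limma-voom and block, and 3, 2 and 2 with the block and without replicate 1, 2 or 3, where TOP2A and TOP2B fell each time. Leaving out each library gave 0 to 3, the 3 being TOP1, TOP2A and TOP2B without knockdown replicate 1. TOP2A passed with the replicate block (-1.45), the GC offset and block (-1.04), limma-voom and block (-1.37) and the block without replicate 1, 2 or 3 (-1.64, -1.34 and -1.38, adjusted p from 0.00397 to 0.0391), and leaving out each library gave -1.86 to -1.20 (adjusted p from 0.0129 to 0.283). TOP2B passed in the same fits (-0.80, -0.38, -0.72, and -0.93, -0.73 and -0.74), with -1.08 to -0.61 over the libraries left out. TOP1 passed with the block (-0.44), limma-voom and block (-0.34) and the block without replicate 1 (-0.54), with -0.67 to -0.30, and TOP1MT with the GC offset and block alone (-0.33), with -0.32 to -0.15. TOP3A turned to -0.00928 with the GC offset, with or without the block (0.0122 to 0.0621 over the libraries left out). TOP3B turned to -0.0867 in both, to -0.00992 without control replicate 1 and to -0.0251 with the block without replicate 1 (-0.00992 to 0.0424).

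The TOP2A to TOP2B ratio passed with the replicate block (-0.65), the GC offset (-0.66), both (-0.66) and the block without replicate 1 (-0.71), with -0.77 to -0.58 over the libraries left out, past the threshold without knockdown replicate 1 alone. The TOP1 ratio missed the threshold with the block without replicate 3 (-0.99). Over the libraries left out the ratios ran from -1.19 to -0.88 (TOP1), -1.71 to -0.88 (TOP1MT), -1.87 to -1.23 (TOP3A) and -1.86 to -1.22 (TOP3B), the last pair missing the threshold without knockdown replicate 2 or 3 or control replicate 1. Ratios were not run for upper-quartile scaling, which leaves them nearly as they are, or for limma-voom. The members had at least 464 reads in every library, and the effect of depth was not tested.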
